A study of Mus musculus with 15 samples.

Results

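Pax6 is 1 gene of the 23420 rows in a count table of mouse neural progenitors, and its level was followed through all 15 libraries of the table. It was taken by its symbol. The annotation places it on the plus strand of chromosome 2, from 105668900 to 105697364 on mm10 (GENCODE M21). The study switched on transcription factors in neural progenitors to find the genes they repress. All cells came from 129/Ola embryonic stem cells, were freed of feeder cells, spent 2 days in suspension and then received 500 nM all-trans retinoic acid, and all were given 1 ug/ml doxycycline for 12 h. Doxycycline acts on the TRE promoter, which in 5 transgenic lines with 2 libraries each drove Olig2, Nkx6.1, Nkx2.2, Nkx6.1-P2A-Olig2 or Nkx6.1-P2A-Nkx2.2. Each transgene was read in the 1 line labelled for it. The P2A peptide lets 1 transcript give separate proteins. The control was the parental mA2.lox.Cre line, in which the same kind of promoter drove the Cre recombinase, with 5 libraries.

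Pax6 encodes a transcription factor with a paired domain and a homeodomain. In the neural tube it is made by progenitors of the intermediate and dorsal ventricular zone and is kept low in the most ventral ones, next to the floor plate. Sonic hedgehog represses it, and Pax6 and Nkx2.2 are known to oppose each other at the border between the V3 and motor neuron progenitor domains. Nkx2.2 and Nkx6.1 are homeodomain repressors that recruit Groucho co-repressors, and Olig2 is a basic helix-loop-helix repressor of motor neuron progenitors.

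A pair of start regions is listed for Pax6 in the RefSeq promoter table (GRCm38.p6). They are shown as the windows on which a factor at a start could act, each from 250 bases before to 50 bases after the start, on the plus strand. Capitals mark matches, on either strand, to AAGTG (a core read by NK2-class homeodomains such as Nkx2.2), TAATT (read by many homeodomains, Nkx6.1 among them) and CANNTG (the E-box of basic helix-loop-helix factors such as Olig2).
Upstream start, chr2:105668646-105668945: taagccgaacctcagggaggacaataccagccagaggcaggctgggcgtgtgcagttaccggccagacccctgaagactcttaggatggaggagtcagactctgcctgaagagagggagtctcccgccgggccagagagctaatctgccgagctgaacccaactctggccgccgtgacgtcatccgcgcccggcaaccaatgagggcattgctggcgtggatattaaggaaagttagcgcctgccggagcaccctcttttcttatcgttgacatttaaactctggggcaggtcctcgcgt
Downstream start, chr2:105682213-105682512: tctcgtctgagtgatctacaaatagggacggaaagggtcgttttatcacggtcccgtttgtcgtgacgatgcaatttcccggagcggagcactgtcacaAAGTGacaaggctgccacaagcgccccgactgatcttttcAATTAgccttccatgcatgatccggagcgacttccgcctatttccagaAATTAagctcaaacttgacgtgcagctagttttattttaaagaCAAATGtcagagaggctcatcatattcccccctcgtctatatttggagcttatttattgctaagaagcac
The upstream window held 0 matches to each of the 3 motifs. The downstream window held 1 AAGTG, 2 TAATT (as AATTA on the plus strand) and 1 E-box, and none of the matches overlapped. Of 32851 promoter windows of the same length, 46.4% held AAGTG, 27.0% held TAATT (10.6% at least 2 of it) and 72.3% held CANNTG. A match describes letters only, and the counts do not tell from which start the Pax6 reads came.

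Library totals ran from 12282038 to 19426544 counts, and each control total was above every transgenic total. Levels below are CPM, reads of a gene relative to the library's total after scaling by the trimmed mean of M-values method. Whether replicates were separate cultures is not stated, so p-values rest on library-to-library spread that may be technical only. All 8 neural progenitor markers of the labelled cell type were measured, and their summed level was 606 to 869 CPM in the controls. Hindbrain and spinal cord Hox genes summed to 311 to 419 CPM there, against 17.7 to 22.8 CPM for 5 forebrain and midbrain factors. Endoderm markers summed to more than the neural progenitor markers, at 1284 to 2320 CPM in the controls, so the labelled cells were not the only type whose markers were read. Of the 6 endoderm markers Cubn gave the most, 1216 ± 287 CPM (SD, n = 5), and CPM is not corrected for transcript length. Of the other tissues that make Pax6, the eye and lens list had 1 of 6 genes above the filter and the pancreas list 0 of 4.

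In the control, Pax6 stood at 96.6, 91.9, 127, 106 and 77.8 CPM in replicates 1 to 5, a mean of 99.8 ± 18.2 CPM (SD, n = 5). The Olig2 line had 44.7 and 46.8 CPM. The Nkx6.1 line had 43.0 and 32.7 CPM. All 4 of these values lay below the lowest control library.
Nkx6.1-P2A-Olig2 cells had 41.2 and 32.8 CPM, which spans almost the same range as the Nkx6.1 line. The Nkx2.2 line had 10.2 and 15.1 CPM. Nkx6.1-P2A-Nkx2.2 cells had 10.7 and 7.88 CPM. The 15 libraries thus fell on 3 levels: the controls, the 6 libraries of lines without Nkx2.2, and the 4 libraries with it, with no overlap between levels. In bulk RNA, fewer cells that make Pax6 and less Pax6 RNA per cell cannot be told apart.

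**Figure D1:**
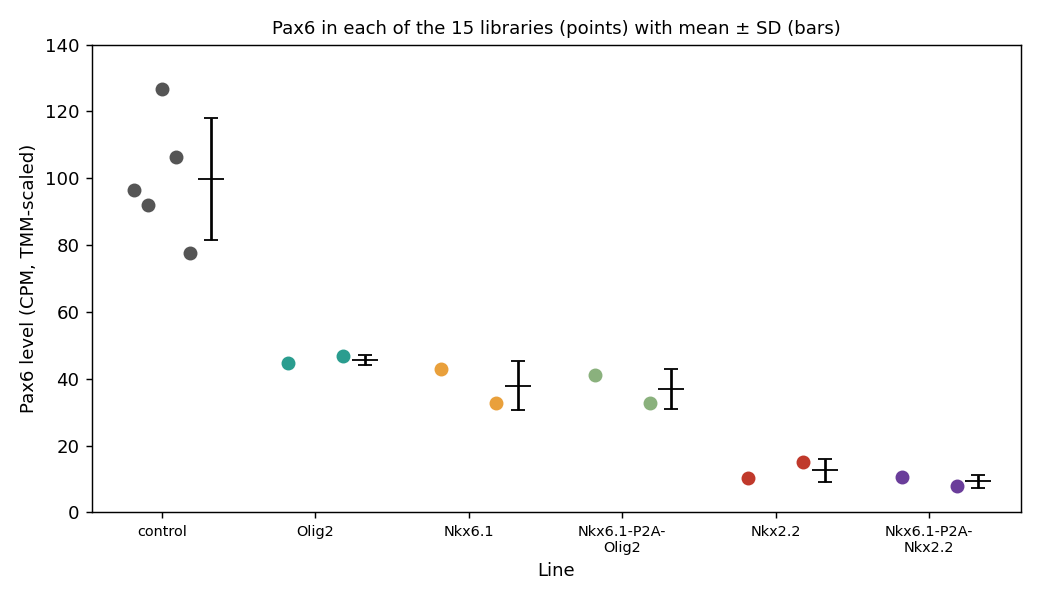
Pax6 level (CPM, linear axis from 0) by line, with 1 point per library and the mean ± SD beside it. The 5 controls sit between 77.8 and 127 CPM, the 6 libraries of lines without Nkx2.2 between 32.7 and 46.8 CPM, and the 4 libraries with Nkx2.2 between 7.88 and 15.1 CPM.

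As a share of the control mean, Pax6 remained at 45.8% ± 1.50 (SD, n = 2) in the Olig2 line, 37.9% ± 7.34 (SD, n = 2) in the Nkx6.1 line and 37.1% ± 5.96 (SD, n = 2) in Nkx6.1-P2A-Olig2 cells. In the Nkx2.2 line it remained at 12.7% ± 3.44 (SD, n = 2), and at 9.29% ± 1.97 (SD, n = 2) in Nkx6.1-P2A-Nkx2.2 cells. Even at its lowest, Pax6 was read well above the counting limit: the lowest library, Nkx6.1-P2A-Nkx2.2 replicate 2, held 125 Pax6 counts (95% exact Poisson interval 104 to 149, counting error only). The highest control library held 2437.

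Each line was compared with the control by edgeR's quasi-likelihood test over 13982 genes, and Pax6 fell in all 5 comparisons at an adjusted p below 0.05. It was 7.92-fold lower in the Nkx2.2 line (95% interval 5.64 to 11.1; edgeR adjusted p = 2.79e-05) and 10.8-fold lower in Nkx6.1-P2A-Nkx2.2 cells (7.58 to 15.5; edgeR adjusted p = 6.98e-06). It was 2.63-fold lower in the Nkx6.1 line (1.95 to 3.56; edgeR adjusted p = 0.00685), 2.18-fold lower in the Olig2 line (1.63 to 2.93; edgeR adjusted p = 0.00706) and 2.69-fold lower in Nkx6.1-P2A-Olig2 cells (1.99 to 3.64; edgeR adjusted p = 0.00194). Of all tested genes, 0.451% were called lower and 0.272% higher with Nkx2.2, 0.565% and 0.172% with Nkx6.1, and 0.443% and 1.42% with Olig2. The shares were 1.76% and 1.09% with Nkx6.1 and Nkx2.2 together, and 1.82% and 1.02% with Nkx6.1 and Olig2 together. A fall past the threshold was thus an uncommon outcome in every line. In the Nkx2.2 line 2 of the 13982 genes had a more negative log2 fold change than Pax6. There were 11 such genes in Nkx6.1-P2A-Nkx2.2 cells, 73 in the Nkx6.1 line, 129 in the Olig2 line and 149 in Nkx6.1-P2A-Olig2 cells. The 5 comparisons share the control libraries and are not independent of each other.

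The calls for the 2 lines with Nkx2.2 held with any 1 of the 15 libraries left out. The other 3 calls could be lost with 1 library of the line, while the size moved little. For the Nkx6.1 line the edgeR adjusted p was 0.117 without Nkx6.1 replicate 1 (log2 fold change -1.61) and 0.0605 without Nkx6.1 replicate 2 (-1.21). For the Olig2 line it was 0.0765 without Olig2 replicate 1 (-1.10) and 0.113 without Olig2 replicate 2 (-1.16), and for Nkx6.1-P2A-Olig2 cells 0.059 without Nkx6.1-P2A-Olig2 replicate 2 (-1.28). The Olig2 line also differed from the control on chromosomes 18 and Y: 156 of 368 tested genes of chromosome 18 were higher and all 5 tested genes of the Y chromosome were lower. With the genes of these chromosomes left out of the fit, Pax6 changed by -1.12 on the log2 scale in the Olig2 line and missed the threshold (edgeR adjusted p = 0.0525). On chromosome 2, which carries Pax6, the median log2 fold change in that line was -0.014 over 1105 genes.

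Some transgenic libraries share a number in the labels with a control library, and the labels do not say what the number stands for. Against the control with the same number, Pax6 was at 11.1% in Nkx2.2 replicate 1, 44.5% in Nkx6.1 replicate 1 and 35.3% in Olig2 replicate 1. It was at 10.03% and 10.1% in replicates 1 and 2 of Nkx6.1-P2A-Nkx2.2 cells, and at 38.8% and 42.2% in those of Nkx6.1-P2A-Olig2 cells. The replicates of the 2-factor lines thus lay closer to each other as shares of the control with their number than as CPM, where they were 7.88 and 10.7, and 32.8 and 41.2. Control libraries with numbers of the same series as the single-factor lines (21) had a mean of 105 CPM (n = 3), and those of the 2-factor series (23) 92.0 CPM (n = 2).

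To compare the strength of the factors, the lines were set against each other in 10 pairs, which with the 5 control comparisons makes 15. Where only 1 of the paired lines carried 2 factors, the fit held a term for the label series. Among single factors, Pax6 was 3.01-fold lower with Nkx2.2 than with Nkx6.1 (95% interval 2.10 to 4.32; edgeR adjusted p = 0.0118; 0.579% of genes called). It was 3.63-fold lower with Nkx2.2 than with Olig2 (2.53 to 5.21; edgeR adjusted p = 0.00124; 1.84% of genes called). Nkx6.1 and Olig2 did not differ past the threshold (log2 difference -0.27, 95% interval -0.76 to 0.22; edgeR adjusted p = 0.592; 1.88% of genes called), an interval that allows Pax6 to be from 1.69-fold lower to 1.16-fold higher with Nkx6.1. The call of Nkx2.2 against Nkx6.1 was lost without Nkx2.2 replicate 1 (-1.30; edgeR adjusted p = 0.0834) and without Nkx6.1 replicate 1 (-1.37; edgeR adjusted p = 0.215). That of Nkx2.2 against Olig2 was lost with only those 2 groups in the fit (-1.86; edgeR adjusted p = 0.11).

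Adding a second factor was read from the 2-factor lines. With Olig2 joined to Nkx6.1, Pax6 did not differ past the threshold from Nkx6.1 alone (log2 difference 0.16, 95% interval -0.50 to 0.81; edgeR adjusted p = 0.866; 0.0787% of genes called) or from Olig2 alone (-0.11, -0.77 to 0.54; edgeR adjusted p = 0.898; 0.579% of genes called). With Nkx6.1 joined to Nkx2.2, it did not differ past the threshold from Nkx2.2 alone (-0.26, -0.98 to 0.45; edgeR adjusted p = 0.939; 0.093% of genes called). The widest of these intervals still allows a change of about 1.97-fold downward, so a moderate added effect was not detectable with 2 libraries a line.

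With Nkx2.2 joined to Nkx6.1, Pax6 was at 7.88 and 10.7 CPM against 32.7 and 43.0 CPM with Nkx6.1 alone, with no overlap. The ratio was 3.60-fold (95% interval 2.23 to 5.83) but the edgeR adjusted p over all genes was 0.103. In that comparison 0.0286% of genes were called, 4 in all, and Pax6 ranked 8 by p. Without the series term the value was -2.04 on the log2 scale and passed (edgeR adjusted p = 0.00666). Between the 2-factor lines, Pax6 was 4.02-fold lower with Nkx2.2 than with Olig2 as the partner of Nkx6.1 (2.75 to 5.88; edgeR adjusted p = 0.0061; 0.157% of genes called). This call was lost without replicate 1 of Nkx6.1-P2A-Nkx2.2 cells (-2.23; edgeR adjusted p = 0.0504), without its replicate 2 (-1.80; 0.223), without replicate 1 of Nkx6.1-P2A-Olig2 cells (-1.82; 0.0797) and with only those 2 groups in the fit (-2.002; 0.0878).

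The pairs without a shared factor gave the same order. Pax6 was 4.35-fold lower in Nkx6.1-P2A-Nkx2.2 cells than in the Olig2 line (2.69 to 7.03; edgeR adjusted p = 0.00732; 1.18% of genes called), a call lost without replicate 2 of the 2-factor line (-1.91; edgeR adjusted p = 0.0657). It was 3.36-fold higher in Nkx6.1-P2A-Olig2 cells than in the Nkx2.2 line (2.09 to 5.38; edgeR adjusted p = 0.0459; 0.257% of genes called). That last call was marginal: it held under 10 of 29 alternatives, and leaving out 1 library gave log2 values of 1.46 to 2.05 and edgeR adjusted p of 0.0307 to 0.217.

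**Figure D2:**
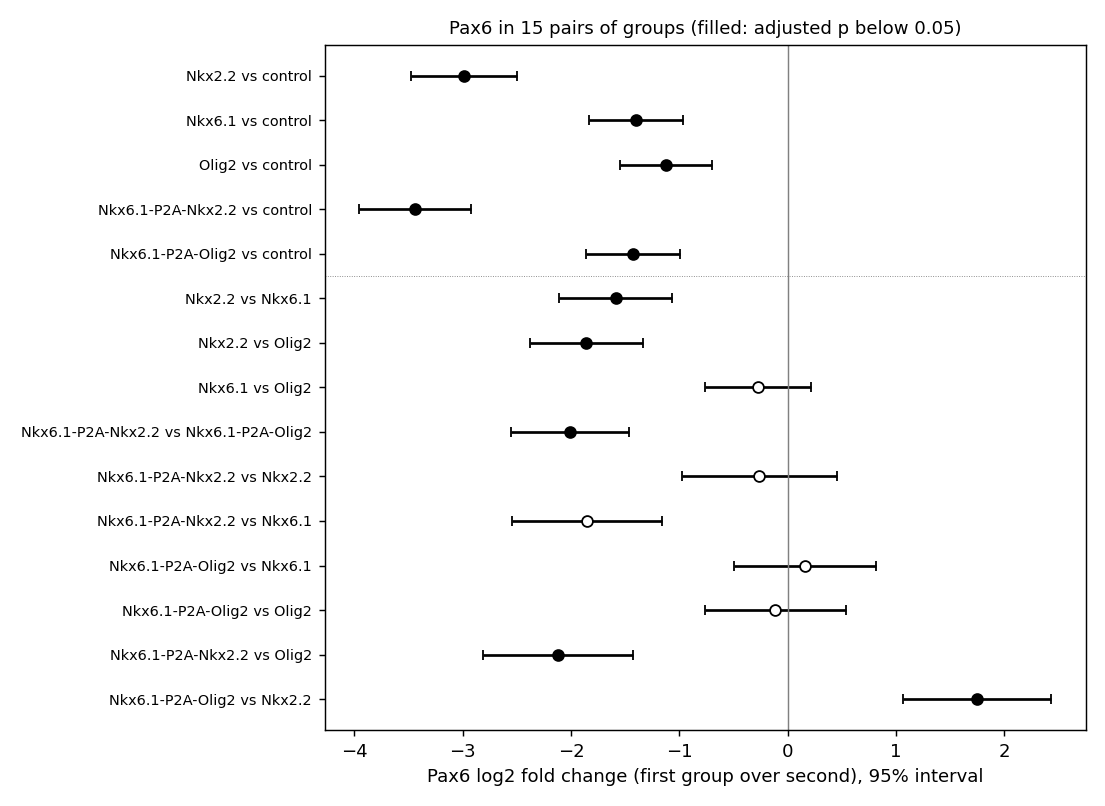
Pax6 log2 fold change with its 95% interval for the 15 pairs of groups, the first group over the second. Filled points passed an edgeR adjusted p of 0.05. The 5 comparisons with the control run from -3.44 to -1.13. The 4 open points near 0 compare Nkx6.1 with Olig2 and the 2-factor lines with a partner alone, and the open point at -1.85 compares Nkx6.1-P2A-Nkx2.2 with Nkx6.1.

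The levels can also be set against what the single factors would leave if their effects multiplied. The shares left by Nkx6.1 (37.9%) and Nkx2.2 (12.7%) multiply to 4.80% of the control level, or 4.79 CPM, and both libraries of Nkx6.1-P2A-Nkx2.2 cells lay above that. Those of Nkx6.1 and Olig2 multiply to 17.4%, or 17.3 CPM, and both libraries of Nkx6.1-P2A-Olig2 cells lay above it. On the log2 scale, with the series term, the departure from the sum of single effects was 1.21 (95% interval 0.29 to 2.13; edgeR adjusted p = 0.873) for Nkx6.1 with Nkx2.2. It was 1.36 (0.48 to 2.23; edgeR adjusted p = 0.334) for Nkx6.1 with Olig2. Both were positive under each of 29 alternatives. Neither passed over all genes, where 0.00715% and 0.0215% were called, except the second with the label number as a block (1.37; edgeR adjusted p = 0.00591).

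Transgene transcript was abundant in every line that carried it. Nkx2-2 was at 506 and 448 CPM in replicates 1 and 2 of the Nkx2.2 line, which had Pax6 at 10.2 and 15.1 CPM. It was at 382 and 358 CPM in Nkx6.1-P2A-Nkx2.2 cells, which had Pax6 at 10.7 and 7.88 CPM. Both libraries of the 2-factor line thus had less Nkx2-2 transcript than either library of the Nkx2.2 line, and their Pax6 levels overlapped.
Nkx6-1 was at 616 to 681 CPM in the 6 libraries of the 3 lines that carry it, over which Pax6 ranged from 7.88 to 43.0 CPM. Olig2 was at 423 and 522 CPM in its own line and at 586 and 637 CPM in Nkx6.1-P2A-Olig2 cells. Counts per gene do not separate a transgene from the cell's own copy. Protein was not measured.

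Among the 5 controls, the library with the least Pax6, replicate 5 at 77.8 CPM, had the most Olig2 (45.1 CPM), Nkx6-1 (47.3 CPM) and Nkx2-2 (1.39 CPM). The one with the most Pax6, replicate 3 at 127 CPM, had 12.7, 20.1 and 0.312 CPM of these genes, and replicate 1, at 96.6 CPM, had the least of all 3 (5.58, 10.8 and 0.261 CPM). With 5 libraries no correlation was computed.

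**Figure D3:**
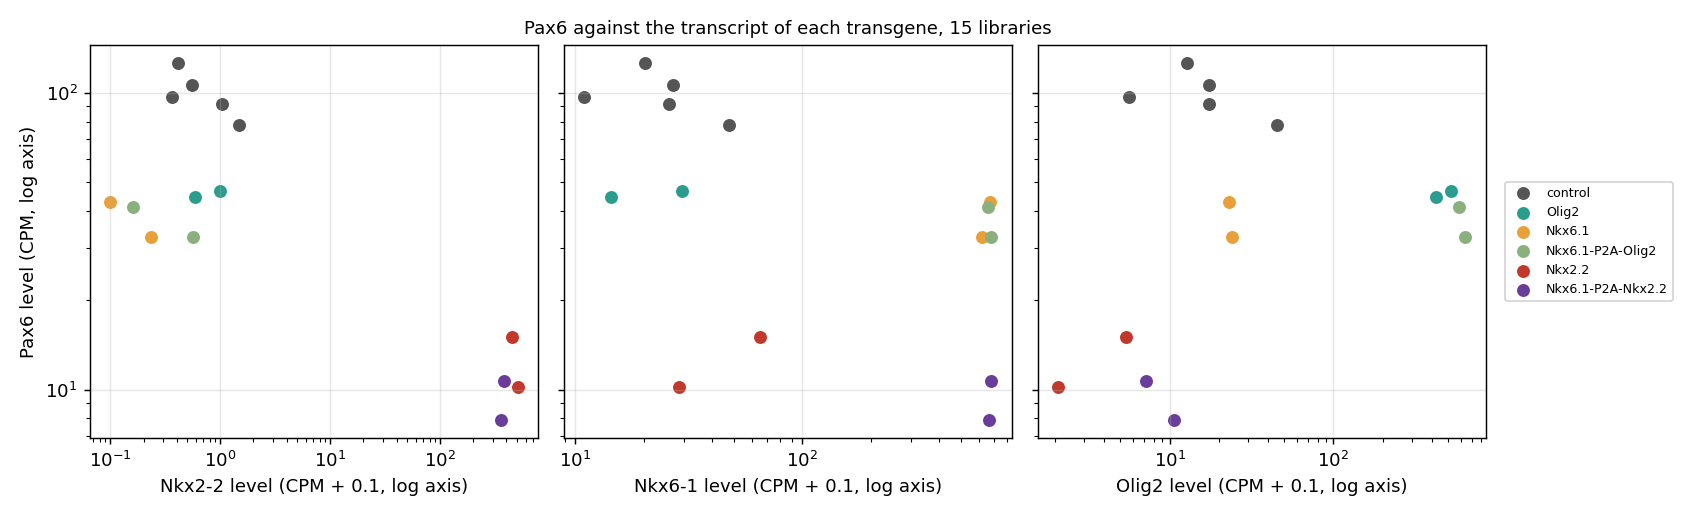
Pax6 level against the transcript level of Nkx2-2, Nkx6-1 and Olig2 (CPM, both axes logarithmic, with 0.1 CPM added on the x axis), 1 point per library coloured by line. The 4 libraries with Nkx2-2 at 358 CPM or more have Pax6 at 15.1 CPM or less, while libraries with Nkx6-1 at 616 CPM or more span Pax6 from 7.88 to 43.0 CPM.

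Pax6 was also expressed relative to the counts of neural progenitor markers. Per 8 summed markers (Sox1, Sox2, Sox3, Nes, Msi1, Hes5, Notch1 and Cdh2), Pax6 was at 13.5% ± 0.581 of the control in the Nkx2.2 line and at 10.1% ± 3.64 in Nkx6.1-P2A-Nkx2.2 cells (SD, n = 2 each). It was at 51.1% ± 3.35 in the Nkx6.1 line, 47.7% ± 17.8 in the Olig2 line and 32.3% ± 10.7 in Nkx6.1-P2A-Olig2 cells (SD, n = 2 each), against 100% ± 11.9 (SD, n = 5). The summed markers were lowest in the Nkx6.1 line, at 486 to 584 CPM, below all controls. In that line 2 of the 8 fell, Sox2 (-0.63 ± 0.13, SE) and Cdh2 (-1.11 ± 0.23). Endoderm markers ran from 624 to 1058 CPM in the 2-factor lines, below every control. Their part in the Pax6 differences was not tested.

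Of 14 other listed progenitor factors of the intermediate and dorsal neural tube 12 were tested, and those past the threshold fell in each line, with 1 exception. Of all genes, 0.451% passed as lower with Nkx2.2, 0.565% with Nkx6.1, 0.443% with Olig2, 1.76% in Nkx6.1-P2A-Nkx2.2 cells and 1.82% in Nkx6.1-P2A-Olig2 cells. In the last of these 1.02% passed as higher. In the Nkx2.2 line 2 of the 12 fell, Irx3 (-1.68 ± 0.22, SE) and Dbx2 (-1.40 ± 0.26), with a list median of -1.46 against -0.005 over all genes. In the Nkx6.1 line 6 fell, with a median of -1.72: Dbx1, a V0 progenitor factor (-4.60 ± 0.81), Prdm12, of V1 progenitors (-3.03 ± 0.60), and Dbx2 (-2.24 ± 0.28) led. In the Olig2 line 1 fell, Irx3 (-1.15 ± 0.21), with a median of -0.63. The count in that line was 0 without the genes of chromosomes 18 and Y, 3 by DESeq2 and 2 by limma on log2(CPM + 1). In Nkx6.1-P2A-Nkx2.2 cells 10 fell, with a median of -2.24. Dbx1 (-6.48 ± 1.01), Prdm13, of dorsal interneuron progenitors (-4.72 ± 0.98), and Olig3, of dorsal progenitors (-3.98 ± 0.70) led. These 3 averaged 0.304, 0.152 and 0.135 CPM there, below the 1 CPM of the filter, from 26.05, 3.93 and 2.32 CPM in the control. Prdm12 averaged 0.316 CPM in the Nkx6.1 line, from 2.75 CPM. At such levels the size of a fall rests on few reads. Olig3 averaged above 1 CPM in the control alone, so little but a fall could be called for it. In Nkx6.1-P2A-Olig2 cells 8 fell, with a median of -2.12, and Pax7, a dorsal paralogue of Pax6, rose (1.53 ± 0.30). These counts depended on the filter. With a 5 CPM filter, 6 fell in Nkx6.1-P2A-Nkx2.2 cells and 1 in the Nkx2.2 line, while 4 fell and 0 rose in Nkx6.1-P2A-Olig2 cells.

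Irx3, an intermediate progenitor factor that limits Olig2 in the chick, had 18.2 ± 2.58 CPM in the Nkx2.2 line and 18.2 ± 5.46 CPM in the Nkx6.1 line (SD, n = 2 each), from 58.3 ± 12.5 CPM (SD, n = 5) in the control. Dbx1 had 6.51 ± 3.90 and 1.05 ± 0.343 CPM in these lines (SD, n = 2 each), while Pax6 had 12.6 ± 3.43 and 37.8 ± 7.33 CPM (SD, n = 2 each). The counts of list members moved with single libraries, as did the calls over all genes. Without 1 library the list counts ran from 0 to 3 in the Nkx2.2 line (0 without Nkx2.2 replicate 1; 1 without Nkx2.2 replicate 2 or control replicate 2 or 4), 0 to 8 in the Nkx6.1 line (0 and 2 without its replicates 1 and 2; 3 without control replicate 4) and 0 to 3 in the Olig2 line (0 without either replicate; 3 without control replicate 5). In Nkx6.1-P2A-Nkx2.2 cells they ran from 2 to 10 (3 and 2 without its replicates 1 and 2) and in Nkx6.1-P2A-Olig2 cells from 2 to 10 (2 and 3). Over all genes, the number called in either direction went from 101 to 57 and 16 without Nkx2.2 replicates 1 and 2, from 103 to 1 and 100 without those of Nkx6.1, and from 260 to 176 and 100 without those of Olig2. It went from 399 to 102 and 87 without those of Nkx6.1-P2A-Nkx2.2, and from 397 to 142 and 81 without those of Nkx6.1-P2A-Olig2.

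**Figure D4:**
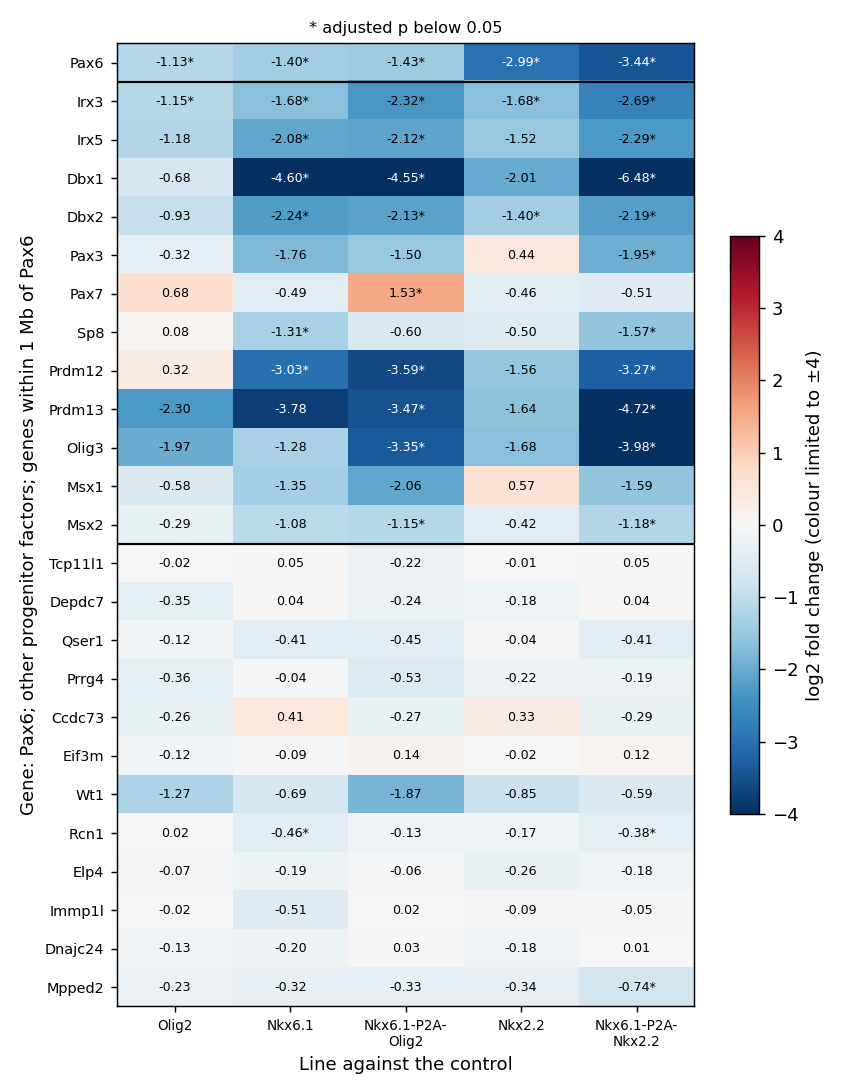
Log2 fold change against the control in each line for Pax6 (top row), 12 other progenitor factors (middle) and the 12 tested genes within 1 Mb of Pax6 (bottom), with the value printed in each cell and an asterisk for an edgeR adjusted p below 0.05. Pax6 runs from -1.13 to -3.44, Dbx1 reaches -6.48, and the nearest gene, Elp4, stays between -0.26 and -0.06.

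Genes known from other tissues or species to need Pax6, or to be activated by it, were described as a list. Of 12 listed 10 were tested, and their median log2 fold change was 0.058 in the Nkx2.2 line, -0.12 in the Nkx6.1 line, 0.38 in the Olig2 line, -0.23 in Nkx6.1-P2A-Nkx2.2 cells and 0.43 in Nkx6.1-P2A-Olig2 cells. Neurog2, a proneural factor with Pax6-dependent enhancers, had 14.1 ± 6.84 CPM (SD, n = 5) in the control. It fell in 3 lines, with log2 fold changes of -3.64 ± 0.58 (SE) with Nkx2.2, -2.65 ± 0.52 with Nkx6.1 and -6.57 ± 0.85 in Nkx6.1-P2A-Nkx2.2 cells. Neurog2 averaged 1.14, 2.24 and 0.143 CPM in these lines, so the sizes, the last most of all, rest on few reads. The fall with Nkx6.1 missed the threshold without any 1 of control replicates 2, 3 and 4, either Nkx6.1 library or either Nkx6.1-P2A-Nkx2.2 library. In the Olig2 line, where Pax6 was at 45.8% of the control, Neurog2 rose by 2.05 ± 0.37 to 58.2 ± 18.4 CPM (SD, n = 2), a rise that missed the threshold without Olig2 replicate 2 or without the genes of chromosomes 18 and Y.
Sfrp2, a secreted Wnt modulator, fell in the 2 lines with the least Pax6, by a log2 fold change of -1.80 ± 0.19 (SE) with Nkx2.2 alone and -1.56 ± 0.19 with Nkx6.1 added. Without either Nkx2.2 library, 1 of the 2 falls in that line remained past the threshold. Its level was 71.2 ± 12.3 CPM (SD, n = 5) in the control, 20.4 ± 2.60 CPM and 24.1 ± 3.36 CPM in those lines, and 85.3 ± 17.5 CPM in the Olig2 line (SD, n = 2 each). Wnt7b, a secreted ligand, was the 1 other member to pass, at 1.35 ± 0.32 (SE) in Nkx6.1-P2A-Olig2 cells. That call was lost without any 1 of control replicates 2, 3 and 4, either Nkx6.1 library or either library of the line. The other 7 tested members, among them Dll1 and En1, passed in no line in edgeR.

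Genes that Pax6 is known to hold down passed as higher in 0 of 5 comparisons in edgeR, and in 0 by DESeq2 and limma, with Nkx2-2 left out where it was the transgene. Of 6 listed 4 were tested, and at an unadjusted edgeR level of 0.05 the number higher was 2 with Nkx2.2 and 0 in each other line. Without Nkx2.2 replicate 1, 1 gene passed as higher with Nkx2.2. Nkx2-2 was at 0.694 ± 0.292 CPM in the Olig2 line and 0.0676 ± 0.0956 CPM in the Nkx6.1 line (SD, n = 2 each), against 0.671 ± 0.484 CPM (SD, n = 5) in the control. Neither difference passed (edgeR adjusted p = 0.975 and 0.173), while Pax6 was at 45.8% and 37.9% of its control level.

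Of 12 factors listed as acting upstream of Pax6, 11 were tested and few passed. Meis1 (-0.67 ± 0.10, SE) and Sox2 (-0.63 ± 0.13) fell with Nkx6.1. In Nkx6.1-P2A-Olig2 cells Meis1 fell (-0.53 ± 0.10) and Pbx2 rose (0.30 ± 0.07). In Nkx6.1-P2A-Nkx2.2 cells Meis2 (-0.90 ± 0.14), the retinoic acid receptor Rarb (-0.83 ± 0.17) and Meis1 (-0.54 ± 0.10) fell. With Olig2 the count was 0 in edgeR, DESeq2 and limma, and 1 of 11 was lower at an unadjusted edgeR level of 0.05. These counts also rested on single libraries: the falls in each 2-factor line were lost without either of its libraries. With Nkx6.1, 0 of 2 remained without Nkx6.1 replicate 1, and 1 without Nkx6.1 replicate 2, any 1 of control replicates 2 to 4 or either library of Nkx6.1-P2A-Nkx2.2 cells. The rise of Pbx2 was lost in 11 of 15 such fits. Of the 8 other Pax genes 4 were tested. Pax3 fell in Nkx6.1-P2A-Nkx2.2 cells (-1.95 ± 0.45, SE) and Pax7 rose in Nkx6.1-P2A-Olig2 cells. The Pax3 call was lost without control replicate 1, 2 or 4, either Nkx6.1 library or either library of its line, and the Pax7 call without either library of its line.

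Of 14 other listed genes within 1 Mb of Pax6 on chromosome 2, 12 were tested. With Nkx6.1, 1 of the 12 passed as lower, against 0.565% of all genes, and in Nkx6.1-P2A-Nkx2.2 cells 2 of the 12 did, against 1.76% of all genes. Elp4, whose annotated end lies 3.66 kb from Pax6 and whose introns hold known Pax6 enhancers, had log2 fold changes of -0.26 ± 0.08, -0.19 ± 0.08, -0.07 ± 0.08, -0.18 ± 0.08 and -0.06 ± 0.08 (SE) with Nkx2.2, with Nkx6.1, with Olig2, with Nkx6.1 and Nkx2.2, and with Nkx6.1 and Olig2, and did not pass in these 5 comparisons. The neighbours past the threshold were Rcn1, a calcium-binding protein of the endoplasmic reticulum, in the Nkx6.1 line (-0.46 ± 0.09) and Nkx6.1-P2A-Nkx2.2 cells (-0.38 ± 0.09), and Mpped2 in the latter (-0.74 ± 0.18). The antisense gene Pax6os1 overlaps the start of Pax6, and the strand setting of the counting is not given. It had 0 to 3 counts per library.

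All 6 listed genes of the Groucho family were tested. As lower and higher, 1 and 2 passed with Nkx2.2 (0.451% and 0.272% of all genes). The counts were 2 and 2 with Nkx6.1 (0.565% and 0.172%) and 1 and 0 with Olig2 (0.443% and 1.42%). They were 2 and 4 in Nkx6.1-P2A-Nkx2.2 cells (1.76% and 1.09%) and 2 and 4 in Nkx6.1-P2A-Olig2 cells (1.82% and 1.02%). Tle1 fell in all 5 lines, from -0.51 ± 0.07 (SE) with Nkx2.2 to -1.25 ± 0.08 in Nkx6.1-P2A-Nkx2.2 cells, and Tle4 fell in the 3 lines with Nkx6.1 (-0.70, -1.13 and -0.97). Tle2 and Tle6 rose in each line except that with Olig2 alone, by 1.27 to 1.92 on the log2 scale, and Tle3 and Aes rose in the 2-factor lines by 0.72 to 1.08. Without either library of the Nkx2.2 line, Nkx6.1 replicate 1 or Olig2 replicate 2, the number of these genes that passed as lower in that line was 0. The number that passed as higher in the Nkx2.2 line was 0 when its replicate 2 was left out and 4 when control replicate 5 was, and in the Nkx6.1 line it was 0 when its replicate 1 was left out. In the 2-factor lines it went from 4 to 1 without Nkx6.1-P2A-Nkx2.2 replicate 2 and from 4 to 2 without Nkx6.1-P2A-Olig2 replicate 2. Of the listed ventral progenitor factors, Nkx6-2, a paralogue of Nkx6.1, passed as lower in the 2-factor lines (-1.82 ± 0.45 and -2.15 ± 0.46, SE). The second of these calls was lost without control replicate 4 or either library of its line, and the first without any 1 of 13 of the 15 libraries, control replicates 3 and 5 being the exceptions.

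The genes whose levels ran most like Pax6 were ranked by Pearson's r of log2 CPM over the 15 libraries, among 9911 genes with a mean of at least 10 CPM. The order is a description of points that share lines and controls. The first 6 began with Pbx3, a TALE homeodomain cofactor (r = 0.974, Spearman's rho = 0.971), Efnb2, an ephrin ligand (0.965, 0.929), and Gas1, a Sonic hedgehog co-receptor (0.956, 0.939). Then came Galnt7, an enzyme of O-linked glycosylation (0.952, 0.939), Cachd1 (0.936, 0.946) and Gli2, the hedgehog effector (0.920, 0.850). Over the 10 transgenic libraries alone the r of these 6 with Pax6 was 0.952, 0.975, 0.916, 0.927, 0.940 and 0.924.
Pbx3 went from 43.1 ± 5.44 CPM (SD, n = 5) in the control to 33.3 ± 0.975 in the Olig2 line, 28.8 ± 0.516 in the Nkx6.1 line, 21.8 ± 0.570 in the Nkx2.2 line and 16.3 ± 3.01 CPM in Nkx6.1-P2A-Nkx2.2 cells (SD, n = 2 each). Gli2 went from 44.4 ± 9.68 CPM (SD, n = 5) to 8.78 ± 2.56 CPM in the Nkx2.2 line and 7.62 ± 4.53 CPM in Nkx6.1-P2A-Nkx2.2 cells, and stood at 28.1 to 36.7 CPM on average in the other 3 lines. The 3 most opposite genes were Hspb8, a small heat-shock protein (r = -0.911, rho = -0.886), Bmp7, a secreted signal (-0.895, -0.821), and Tmem50b (-0.895, -0.861). Bmp7 stood at 35.9 ± 2.77 CPM (SD, n = 5) in the control, 70.2 ± 10.8 CPM in the Nkx2.2 line and 90.7 ± 2.56 CPM in Nkx6.1-P2A-Nkx2.2 cells (SD, n = 2 each).

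The authors' deposited table of ratios lists Pax6 as well. It gives 0.0991 and 0.130 for Nkx2.2 replicates 1 and 2, 0.409 and 0.259 for Nkx6.1, and 0.343 and 0.417 for Olig2. It gives 0.0712 and 0.067 for Nkx6.1-P2A-Nkx2.2, and 0.365 and 0.262 for Nkx6.1-P2A-Olig2. These values in the authors' deposited table are counts over the mean control count with no correction for library totals, and since each control library is larger than each transgenic one, all 10 lie below the library-scaled shares.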

How the data were processed

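The first deposited table holds counts per gene and library. Although the name of its sheet speaks of RPKM, 0 cells were non-integer and the column sums differed. Per the submitters' processing notes, STAR, DESeq2 and mm10 were used; the counting tool, annotation and strand setting are not given in the sources used here. The second deposited table holds a ratio for 224 genes, and all 2240 cells equalled the count over the mean control count within 1e-8. In 27 rows a date stands for the symbol (0.228% to 0.253% of counts); they stayed in library totals only. Pax6, the lists and the markers were chosen with earlier results of these data known.

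Genes with at least 1 CPM in 2 libraries (13982) were tested with edgeR 4.0.16 (R 4.3.3; TMM scaling, quasi-likelihood, 6 groups in 1 model of all 15 libraries). The series of the label numbers (21 or 23) was a term where 2-factor and single-factor lines met and in the test of departure from the sum, and was estimated from the controls, the 1 group with both series. P-values were adjusted by Benjamini-Hochberg over all tested genes of a comparison, at a threshold of 0.05. SEs and 95% intervals come from the quasi-likelihood F. Genes named are Pax6, the transgenes' genes, up to 3 members per list past the threshold with the largest change, the 6 most like and 3 most opposite to Pax6, and neighbours past the threshold. Irx3, Dbx1, Elp4 and members that did not pass were also given values after these were seen. DESeq2 1.42.0, limma 3.58.1, other scalings, filters, blocks, control sets and left-out libraries were alternatives, and the test was tried on simulated data. Some results are not reported here.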

Additional observations from a re-analysis of the deposited data

How the results depend on the processing

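Of 498 values of Pax6 under alternatives, 447 kept their direction and side of the threshold (values below are log2 fold changes of Pax6). Calls were lost with only the compared groups in the fit (Nkx2.2 against Olig2, -1.86; the 2-factor lines, -2.002; Nkx6.1-P2A-Olig2 against Nkx2.2, 1.73) and without chromosomes 18 and Y, chosen after seeing the data (Olig2 against control, -1.12; Nkx6.1-P2A-Olig2 against Nkx2.2, 1.74). The marginal Nkx6.1-P2A-Olig2 against Nkx2.2 was also lost with a 5 CPM filter (1.74), robust fitting (1.75), median-of-ratios scaling (1.73) and limma on log2(CPM + 1) (1.69). Nkx6.1-P2A-Nkx2.2 against Nkx6.1 passed with adjustment over all contrasts together (-1.85), no filter (-1.85), no series term (-2.04) and DESeq2 (-1.84). Nkx6.1-P2A-Olig2 against Nkx6.1 changed sign without the series term (-0.033), short of the threshold both ways.

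The replicates share only a number, and fits with a block could hold no series term: correlations of deviations ran from -0.337 to 0.675 over same-numbered replicates and from -0.485 to 0.675 by label number, where groups of 2 mirror each other. With the replicate number as a block, Nkx6.1-P2A-Nkx2.2 against Nkx6.1 passed (-2.04) and Nkx6.1-P2A-Olig2 against Nkx6.1 changed sign (-0.032). With the label number as a block, the former passed (-2.14), departure of Nkx6.1-P2A-Olig2 from the sum passed (1.37), and 3 differences that did not pass changed sign: Nkx6.1 against Olig2 (0.34), Nkx6.1-P2A-Olig2 against Nkx6.1 (-0.14) and against Olig2 (0.20).

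Leaving out each library gave -1.61 to -1.21 for Nkx6.1, -1.21 to -1.03 for Olig2 and -1.61 to -1.28 for Nkx6.1-P2A-Olig2 against the control. It gave -1.89 to -1.30 for Nkx2.2 against Nkx6.1, -2.23 to -1.80 between the 2-factor lines, -2.35 to -1.91 for Nkx6.1-P2A-Nkx2.2 against Olig2 and 1.46 to 2.05 for Nkx6.1-P2A-Olig2 against Nkx2.2. Differences that did not pass ranged from -0.54 to 0.041 (Nkx6.1-P2A-Nkx2.2 against Nkx2.2), -0.047 to 0.38 (Nkx6.1-P2A-Olig2 against Nkx6.1) and -0.32 to 0.10 (against Olig2). A group left with 1 library was taken to vary like the others. The causes were not tested. DESeq2 called 1.57% of genes with Nkx2.2, 3.48% with Nkx6.1 and 3.08% with Olig2, against 0.722%, 0.737% and 1.86% in edgeR, and 4.65% and 5.11% in the 2-factor lines with Nkx2.2 and Olig2, against 2.85% and 2.84%. Of list counts, 228 of 257 stayed within 1.5 times under alternatives other than leaving out a library, and 357 of 473 under those.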
